A study of Mus musculus with 48 samples.

Results

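Ribosome biogenesis and RNA polymerase I transcription were followed over the day in mouse liver through 35 genes, taken as a named list and matched by Ensembl identifier in all 48 libraries. All 35 averaged at least 1 RPKM (a read count divided by the length of the gene and the depth of its library) in both assays and were among the 9445 genes tested, of 10829 listed in both. The libraries came from male C57BL/6JRj mice, 11 to 12 weeks old, kept for 2 weeks in a cycle with 12 h light and 12 h dark. Livers were sampled every 2 h at 12 zeitgeber times (ZT), with ZT0 at lights on and ZT12 at lights off. Every sample was a pool of 2 livers lysed with cycloheximide, and each of the 24 pools gave both a total RNA library and a library of ribosome footprints, the stretches of mRNA covered by ribosomes. There were 2 pools per time point, and no other genotype or treatment.

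A ribosome starts in the nucleolus, where RNA polymerase I, recruited by the initiation factor Rrn3 (TIF-IA) and the DNA-binding protein Ubtf, transcribes the precursor of the large ribosomal RNAs. Small nucleolar ribonucleoproteins then modify that precursor. Box C/D particles, built on Nop56, Nop58 and the methyltransferase Fbl, guide 2′-O-methylation, and box H/ACA particles, built on Dkc1, Gar1, Nhp2 and Nop10, guide pseudouridylation. Separate sets of assembly factors fold and cleave the pre-rRNA into the small and large subunits. In growing cells the pathway follows growth signals and the Myc transcription factor, and in liver it is known to be tied to feeding.

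The members had 8 genes of RNA polymerase I and nucleolar organisation (Polr1a, Polr1b, Rrn3, Ubtf, Mybbp1a, Ddx21, Ncl, Nolc1), 4 of box C/D particles (Nop56, Nop58, Fbl, Rrp9) and 4 of box H/ACA particles. Another 9 act on the small subunit (Heatr1, Nop14, Wdr43, Utp20, Bms1, Rrp12, Tsr1, Ltv1, Nob1) and 10 on the large subunit (Bop1, Pes1, Wdr12, Gnl3, Nop2, Nip7, Rrs1, Rrp1, Nop16, Ebna1bp2).

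Promoter windows are shown first, because the E-box CACGTG is the DNA element bound by the clock factors BMAL1 and CLOCK and also by MYC and MAX. RefSeq windows of build GRCm38.p6, running from 250 bases before to 50 after a transcript start, matched 31 of the 35 members (38 windows). Fbl, Rrs1, Bop1 and Rrp12 had no window in the table used. The 250 bases before the start of Rrn3 (chr16:13780449-13780698, plus strand) held 2 E-boxes and those of Nop2 (chr6:125131633-125131882, plus strand) held 1, in capitals, 5′ to 3′:
Rrn3: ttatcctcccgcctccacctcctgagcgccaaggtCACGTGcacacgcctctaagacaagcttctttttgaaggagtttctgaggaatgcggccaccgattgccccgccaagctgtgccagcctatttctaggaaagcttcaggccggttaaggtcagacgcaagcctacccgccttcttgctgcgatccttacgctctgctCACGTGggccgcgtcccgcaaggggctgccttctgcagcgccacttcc
Nop2: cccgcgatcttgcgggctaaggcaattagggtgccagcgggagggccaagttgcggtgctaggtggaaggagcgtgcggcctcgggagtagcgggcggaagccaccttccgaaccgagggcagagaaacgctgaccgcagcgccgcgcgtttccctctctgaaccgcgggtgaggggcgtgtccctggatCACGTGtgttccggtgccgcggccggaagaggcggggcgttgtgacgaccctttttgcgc

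The 2 E-boxes of Rrn3 began 215 and 48 bases before the start, and that of Nop2 began 60 bases before it. Both genes reached the rhythm call described below in footprints, and Rrn3 also in total RNA. Of the other E-box holders, Ltv1 and Mybbp1a were called rhythmic in neither assay. Tsr1 and Wdr43 were called in 1 assay each, whereas Pes1 and Utp20 were called in neither. Their 30-base sites, again with the E-box in capitals, lie at chr11:74898092-74898121 (plus strand), chr17:71616220-71616249 (plus), chr11:3963965-3963994 (plus) and chr10:88826765-88826794 (minus):
Tsr1: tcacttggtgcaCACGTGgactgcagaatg
Wdr43: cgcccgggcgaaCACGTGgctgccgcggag
Pes1: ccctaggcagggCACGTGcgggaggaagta
Utp20: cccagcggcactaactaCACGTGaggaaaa

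In all, 8 of the 31 matched members (25.8%) had CACGTG in a window, namely Ltv1, Mybbp1a, Nop2, Pes1, Rrn3, Tsr1, Utp20 and Wdr43, against 8.09% of all 27025 genes in the table. For this and the other motifs, that background was not limited to the 9445 genes tested in liver, whereas every member was among them. The motif shares of members and of all genes thus come from unlike sets. All motifs were searched on both strands, and a match describes letters in a window, not a bound site. The ETS-type motif CCGGAAG, was in 11 members (35.5%, against 9.93% of all genes), and the NRF1 motif in 6 (19.4%, against 5.19%). AAGATGGC, a YY1 motif (3.19% of all genes), and TTATGTAA, a D-box (1.11%), were in 0 member windows. No matches of different motifs overlapped in the member windows. The 8 members with an E-box had a median fitted fold of 1.29 in total RNA and 1.29 in footprints, and the 23 without one had 1.35 and 1.31. Of the 8, 4 were called rhythmic in at least 1 assay, and of the 23, 8 were, against 21.5% of all genes. In total RNA 2 of the 8 and 7 of the 23 were called, against 15.8% of all genes. In footprints 3 and 6 were called, against 16.7%. Gnl3, the member with the widest rhythm in total RNA, had no E-box in its window.

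Total RNA libraries held about 3.88 to 23.8 M reads on listed genes (median 11.8) and footprint libraries 13.9 to 43.0 M (median 17.9), as read back from whole multiples of the RPKM values. The clock genes followed their usual antiphase, with Arntl highest near ZT23.1 and Dbp near ZT10.8 in total RNA, and albumin averaged 37194 RPKM. In 6 of the 24 pools (both of ZT2, replicate 1 of ZT4 and ZT6, and replicate 2 of ZT8 and ZT16) the 9 measured pancreatic acinar markers summed to 162 to 784 RPKM in total RNA, against 5.78 to 25.1 in the other 18 pools. In footprints 11 such markers summed to 258 to 1386 RPKM against 4.11 to 34.7. Since 5 of these 6 pools fall between ZT2 and ZT8, which includes the ZT4 low of many genes below, calls are given with and without them. A level in whole liver can change through RNA per cell or through the share of a cell type, and these cannot be told apart here.

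A gene was called rhythmic when the 24 h curve fitted by limma to log2(RPKM + 0.1) had an adjusted p under 0.05 and rose at least 1.5-fold from fitted trough to fitted peak. In total RNA 10 of the 35 members (28.6%) were called, against 15.8% of all genes tested: Rrn3, Ncl, Nolc1, Nop56, Nop58, Nop10, Wdr43, Rrp12, Gnl3 and Nop16. In footprints 10 members (28.6%, against 16.7%) were called: Rrn3, Ncl, Nolc1, Nop56, Rrp9, Rrp12, Tsr1, Gnl3, Nop2 and Nop16. Both lists held 7 members (20.0%, against 11% of all genes), 13 were called in at least 1 assay (against 21.5% of all genes), and 22 in neither. On the adjusted p alone, with no minimum fold, 17 members (48.6%) passed in each assay, close to the 43.1% and 45% of all genes. Rhythms of the members were small, with a median fitted fold of 1.28 in total RNA and 1.30 in footprints beside 1.254 and 1.235 over all genes tested.

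All 20 calls, 10 per assay, had a fitted peak between ZT11 and ZT20, from late light to late night, a window set after the values were seen. Over all genes, 34.3% of those called in total RNA and 38.7% of those called in footprints peaked in it. By time point, 19 members had their highest mean at ZT14 in total RNA and 19 in footprints. The lowest mean fell at ZT4 for 17 members in footprints, while in total RNA it fell at ZT22 for 9 and at ZT4 and ZT20 for 5 each. The shares of all genes with their highest or lowest mean at these times were not computed. The ZT14 means lean on replicate 1, which held the highest single value for 21 members in total RNA and 16 in footprints. Replicate 2 of ZT14 held it for 0 and 1. As the map of time-point means shows, members of all 5 roles were high around ZT14, with exceptions. Correlated over the 24 pools with the mean of the other members, Ubtf gave -0.21 in total RNA and -0.45 in footprints, Nop10 gave 0.15 and -0.58, and Rrp1, with its lowest total RNA mean at ZT14, gave -0.18 and 0.26.

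**Figure D1:**
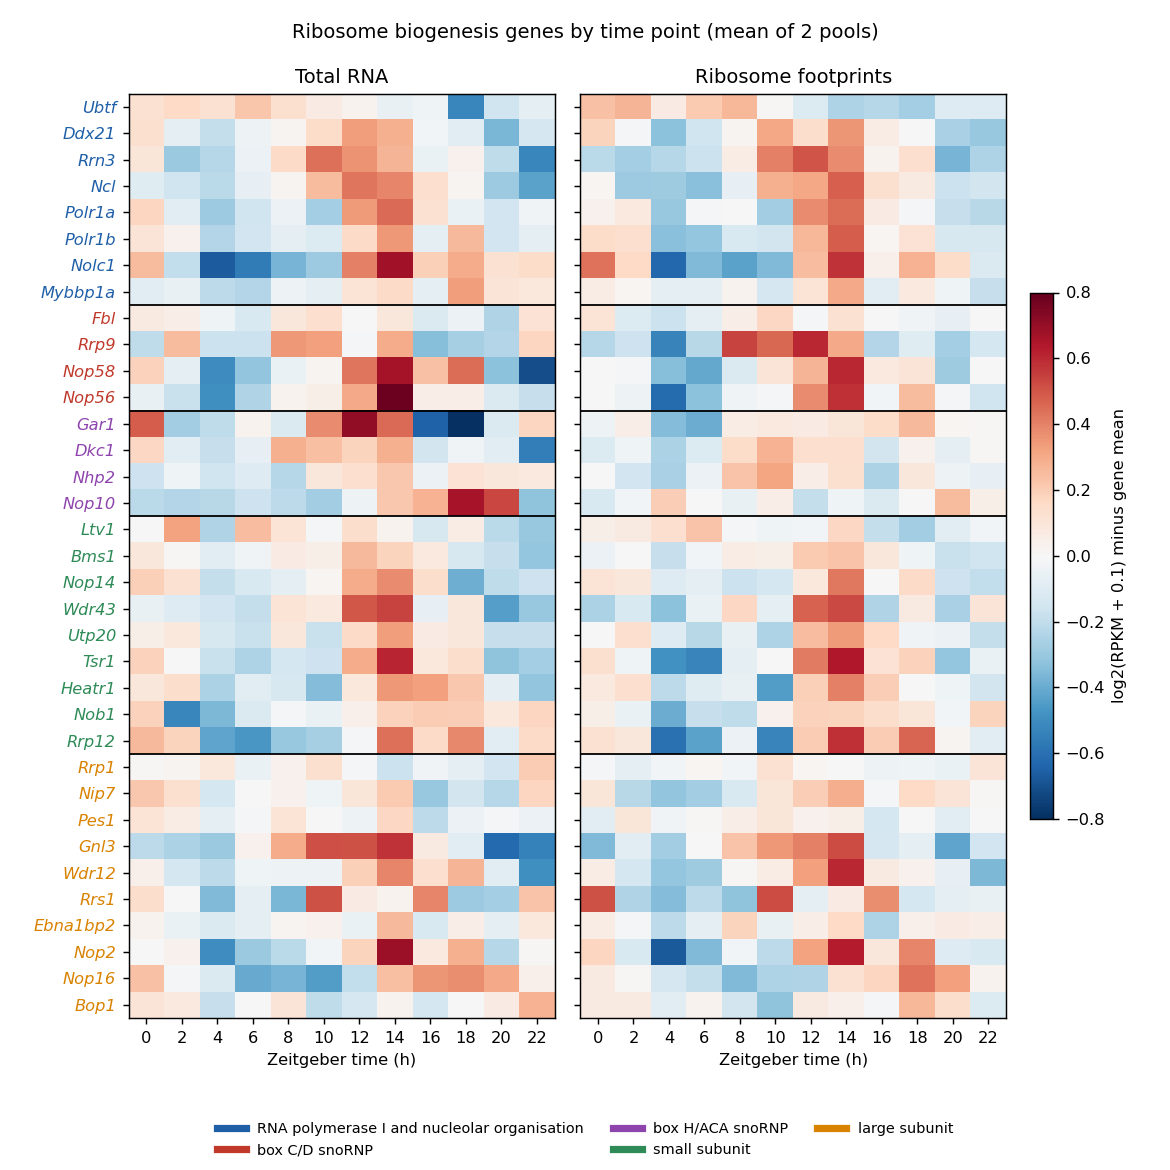
Heat map of the 35 members (rows, grouped and coloured by role, ordered by fitted peak within a role) over 12 zeitgeber times (columns, h), in total RNA (left) and footprints (right). Colour is log2(RPKM + 0.1), mean of 2 pools, minus the gene's mean; the reds gather around ZT12 and ZT14, and Ubtf is red by day and blue at night.

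Among the polymerase I genes, Rrn3 (ENSMUSG00000022682, chromosome 16, 13780708 to 13814839), which makes the polymerase competent to initiate, rose toward dusk. Its total RNA was 25.01 and 23.5 RPKM in the pools of ZT10 and 15.4 and 9.96 at ZT22, and over the 24 pools it ran from 9.96 through a median of 18.1 to 25.9. Its footprints were 15.7 and 19.0 RPKM at ZT12 and 9.87 and 8.92 at ZT20. In each assay these were the time points with the highest and lowest mean, picked from the same values. The fitted folds were 1.54 in total RNA (95% interval 1.247 to 1.91, adjusted p = 0.00557, peak ZT11.4 ± 1.87 h) and 1.66 in footprints (1.36 to 2.04, adjusted p = 0.00086, ZT12.3 ± 1.53 h). Pools of a single time point could differ by as much, as at ZT6, with 13.5 and 21.98 RPKM in total RNA and 8.42 and 13.9 in footprints. The total RNA call ended without ZT14 replicate 1 (1.496-fold, adjusted p = 0.01195) or ZT22 replicate 2 (1.44-fold, 0.0129). With time point as a factor Rrn3 passed in neither assay (adjusted p = 0.0913 in total RNA and 0.112 in footprints).

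Ubtf (ENSMUSG00000020923, chromosome 11, 102304560 to 102319742), the architectural factor that keeps rRNA gene repeats open, was highest by day. Total RNA was 23.9 and 24.0 RPKM at ZT6 and 15.4 and 13.2 at ZT18, the lowest 2 of the 24 pools. Footprints were 11.8 and 11.9 RPKM at ZT2 and 8.54 and 7.67 at ZT18. The fitted folds of 1.36 (1.20 to 1.54, adjusted p = 0.00113, peak ZT5.74 ± 1.56 h) and 1.42 (1.28 to 1.57, adjusted p = 1.91e-05, ZT4.30 ± 1.10 h) stayed under the minimum of 1.5, so it was not called. Its fitted peaks lay in the light hours, earlier than those of Rrn3 in the same libraries.

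Ncl (ENSMUSG00000026234, chromosome 1, 86344719 to 86359400), nucleolin, the abundant RNA-binding protein of the nucleolus, was the second highest member in RPKM, a level per length, in both assays. Its total RNA was 56.0 and 62.7 RPKM at ZT12 and 29.96 and 35.6 at ZT22, with a median of 43.7. Footprints were 93.8 and 80.9 RPKM at ZT14 and 47.7 and 51.1 at ZT6, with a median of 62.7. The folds were 1.56 (1.37 to 1.78, adjusted p = 2.44e-05, peak ZT12.1 ± 1.12 h) and 1.52 (1.33 to 1.74, adjusted p = 8.94e-05, ZT13.9 ± 1.24 h). The footprint value lies at the minimum fold, and fell under it without ZT6 replicate 1 (1.496-fold, adjusted p = 0.000126), ZT12 replicate 2 (1.49-fold, 0.000274) or ZT14 replicate 1 (1.46-fold, 0.000301).

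Nolc1 (ENSMUSG00000015176, chromosome 19, 46075863 to 46085530), a nucleolar and coiled-body phosphoprotein that chaperones snoRNPs, was lowest from ZT4 to ZT10 and highest at ZT14. In footprints the next highest time point was ZT0, at 16.9 and 20.0 RPKM. Its total RNA was 23.3 and 17.7 RPKM at ZT14 and 7.77 and 8.14 at ZT4, and its footprints were 22.9 and 17.96 at ZT14 and 7.28 and 10.47 at ZT4. Folds reached 1.90 (1.49 to 2.41, adjusted p = 0.000466, peak ZT17.0 ± 1.43 h) and 1.60 (1.21 to 2.12, adjusted p = 0.0211, ZT17.96 ± 2.27 h). The footprint call ended without ZT4 replicate 1 (1.498-fold, adjusted p = 0.0471) and without the 6 pancreatic pools (1.45-fold, 0.179).

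The catalytic subunits were not called. Polr1a, the largest subunit, ranged from 4.87 to 9.74 RPKM in total RNA around a median of 6.67 (1.27-fold, adjusted p = 0.0882), and Polr1b, the second largest, from 6.20 to 10.7 around 7.13 (1.19-fold, 0.143). In footprints the adjusted p values were 0.133 for Polr1a (95% interval of the fold 1.03 to 1.52) and 0.0867 for Polr1b (1.06 to 1.56). Both nevertheless had their highest time-point mean at ZT14 in each assay. With time point as a factor both passed in footprints (adjusted p = 0.0337 for Polr1a and 0.0378 for Polr1b), and Polr1a alone in total RNA (0.0174). Mybbp1a, a nucleolar Myb-binding protein, and the helicase Ddx21 had total RNA folds of 1.27 and 1.28 with adjusted p of 0.00245 and 0.0363, under the minimum fold.

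**Figure D2:**
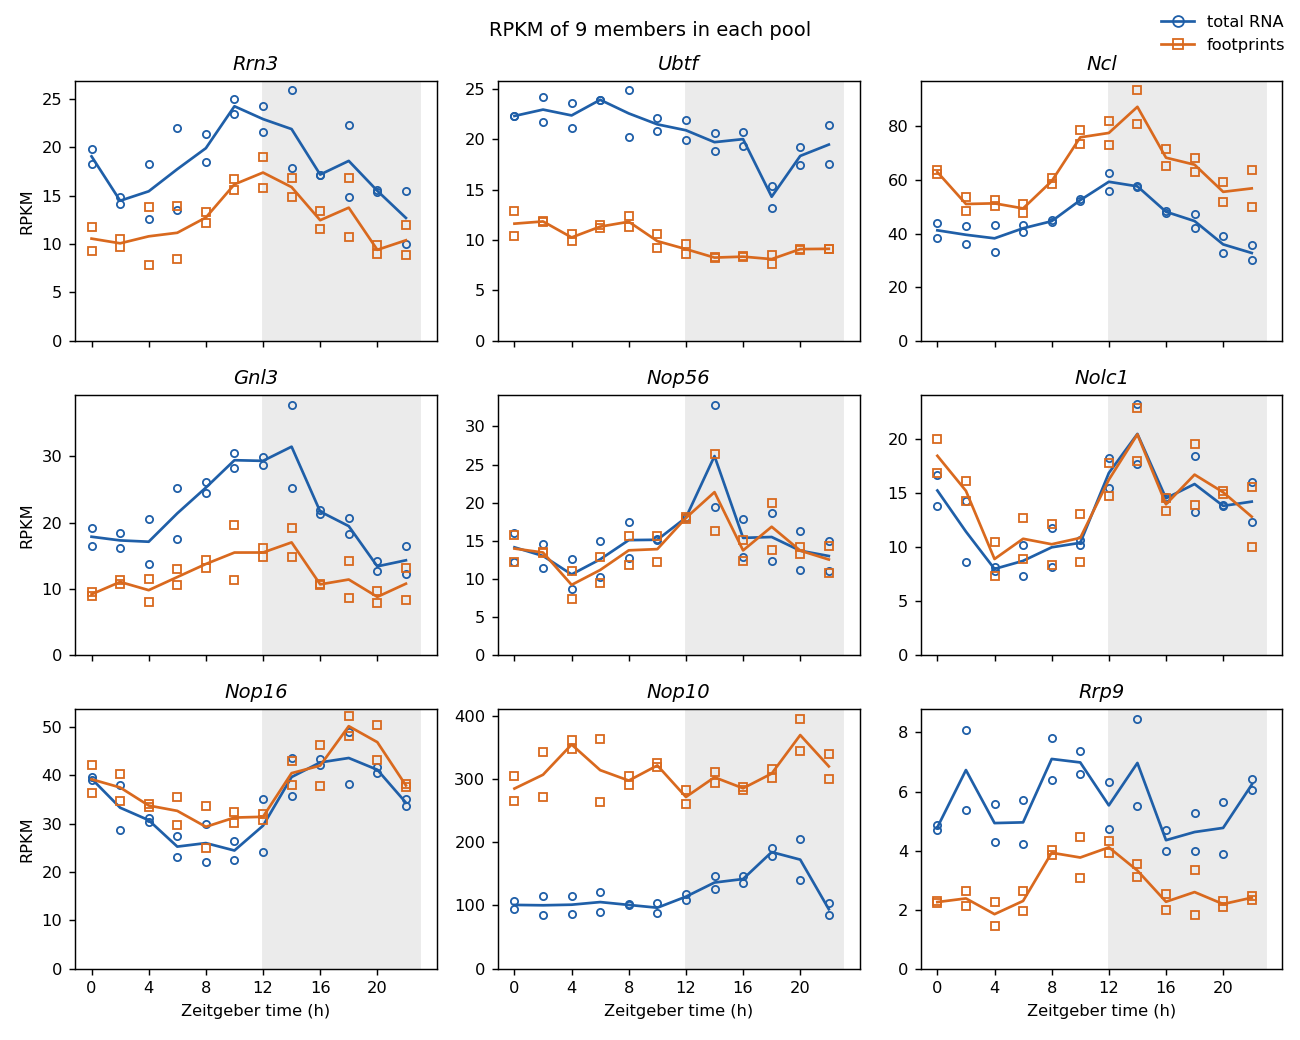
RPKM (vertical axis, from 0) by zeitgeber time (h) for 9 members in total RNA (blue circles) and footprints (orange squares); each marker is 1 of 2 pools, lines join their means, and grey marks the dark hours. Rrn3, Ncl and Gnl3 climb through the light hours to ZT10 to ZT14, Nop16 peaks at ZT18, Ubtf is lowest at ZT18, and Nop10 is highest at ZT18 and ZT20 in total RNA, while its footprints are highest at ZT20 and nearly as high at ZT4.

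Of the box C/D genes, Nop56 (ENSMUSG00000027405, chromosome 2, 130274430 to 130279313) and Nop58 (ENSMUSG00000026020, chromosome 1, 59684971 to 59719044), the paired scaffold proteins of the particle, rose most at ZT14. Nop56 total RNA was 32.9 and 19.4 RPKM at ZT14 and 8.60 and 12.5 at ZT4, and its footprints were 26.4 and 16.3 against 7.34 and 11.0. The folds were 1.59 (1.24 to 2.04, adjusted p = 0.0112, peak ZT14.0 ± 2.05 h) and 1.55 (1.23 to 1.96, adjusted p = 0.01, ZT15.0 ± 2.04 h). Without replicate 1 of ZT14 the folds were 1.43 in both assays (adjusted p = 0.0279 in total RNA and 0.0268 in footprints), under the minimum. The footprint call also ended without ZT4 replicate 1 (1.44-fold, adjusted p = 0.0271). With time point as a factor Nop56 did not pass in total RNA (adjusted p = 0.124) or in footprints (0.0783).

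Nop58 total RNA was 29.1 and 15.3 RPKM at ZT14 and 8.56 and 7.68 at ZT22. Its fold was 1.72 (1.27 to 2.32, adjusted p = 0.0145, peak ZT14.0 ± 2.13 h), and it kept its size without the pancreatic pools (1.71) with an adjusted p of 0.0638. In footprints, at 20.1 and 12.5 RPKM at ZT14 and 6.08 and 10.1 at ZT6, the fold of 1.43 was not called (adjusted p = 0.0513). A snoRNA gene overlaps 86 of the 1740 coding bases of Nop56 and 5 of the 1608 of Nop58, so reads there may belong to either.

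Rrp9 (ENSMUSG00000041506, chromosome 9, 106475963 to 106485424), a U3 snoRNP protein, had the widest footprint rhythm of the 35. Its footprints were 4.31 and 3.91 RPKM at ZT12 and 1.45 and 2.25 at ZT4, a fold of 1.72 (1.34 to 2.21, adjusted p = 0.00321, peak ZT11.4 ± 1.76 h). Total RNA ran from 3.88 through 5.53 to 8.44 RPKM, with pools of a time point as far apart as 5.38 and 8.07 at ZT2, and its 1.26-fold curve was not called (0.980 to 1.61, adjusted p = 0.268). The test of the difference between assays did not pass (adjusted p = 0.512, and 0.0953 when paired by pool). Fbl, fibrillarin, the methyltransferase of the particle, had folds of 1.07 (0.917 to 1.252, adjusted p = 0.722) and 1.09 (0.981 to 1.22, adjusted p = 0.337), among the narrowest of the members. Its levels lay between 13.1 and 23.1 RPKM in total RNA and between 23.7 and 33.1 in footprints.

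Of the box H/ACA genes, Nop10 (ENSMUSG00000027133, chromosome 2, 112261926 to 112263269), a very small core protein with 192 coding bases, was the highest member in both assays, with means of 120.7 ± 33.2 RPKM (SD, n = 24) in total RNA and 311 ± 35.1 in footprints. Total RNA reached 191 and 178 RPKM at ZT18 and 205 and 140 at ZT20, and was 103 and 84.8 at ZT22. Its fold was 1.65 (1.34 to 2.02, adjusted p = 0.00116, peak ZT17.1 ± 1.57 h). Footprints were 315 and 301 RPKM at ZT18, 344 and 395 at ZT20, their highest time-point mean, and 362 and 347 at ZT4. Their 24 h curve was not called, with a fold of 1.09 (0.957 to 1.245, adjusted p = 0.485). In the test of the difference between assays the adjusted p was 0.0593 unpaired (1.70-fold, 1.33 to 2.17) and 0.0185 paired by pool (1.37 to 2.10), the paired ratio being highest near ZT4.54.

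Dkc1, dyskerin, the pseudouridine synthase, had a total RNA fold of 1.35 (1.13 to 1.62, adjusted p = 0.0209, peak ZT10.6 ± 2.25 h), under the minimum, and a footprint fold of 1.20 (adjusted p = 0.0826). Nhp2 had folds of 1.21 and 1.20, with adjusted p of 0.106 and 0.126. Gar1 (ENSMUSG00000028010, chromosome 3, 129824912 to 129831396) was the lowest member in total RNA, from 0.711 through 2.15 to 3.92 RPKM, or about 3.02 to 51.0 reads a library. Its counting error is therefore large, and its fold of 1.35 had an interval of 0.883 to 2.07 (adjusted p = 0.449), while its footprints (4.55 to 10.3 RPKM) had a fold of 1.30 (1.09 to 1.55, adjusted p = 0.0427). Of the 4 genes of this particle, Nop10 alone was called in total RNA, against 15.8% of all genes. In footprints 0 were called, against 16.7% of all genes. Gar1 alone had an adjusted p under 0.05 there, against 45% of all genes.

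Of the 9 small-subunit factors, 3 were called in at least 1 assay, against 21.5% of all genes. Rrp12 (ENSMUSG00000035049, chromosome 19, 41862851 to 41896173), a HEAT-repeat protein of pre-ribosome export, was called in both assays. It had 4.88 and 4.62 RPKM at ZT14 and 2.04 and 3.02 at ZT6 in total RNA, and 5.75 and 3.90 at ZT14 and 1.99 and 2.07 at ZT4 in footprints. The folds were 1.55 (1.23 to 1.95, adjusted p = 0.00952, peak ZT18.5 ± 2.00 h) and 1.65 (1.28 to 2.13, adjusted p = 0.00649, ZT17.1 ± 1.92 h). Its total RNA call ended without ZT6 replicate 1 (1.47-fold, adjusted p = 0.0267), ZT8 replicate 2 (1.48-fold, 0.0242) or the pancreatic pools (1.41-fold, 0.0886). Both Rrp12 calls ended with a pseudocount of 1 (1.41-fold and 1.475-fold), which shrinks folds of a gene near 3 RPKM.

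Wdr43 (ENSMUSG00000041057, chromosome 17, 71615895 to 71659031), a component of the small-subunit processome that joins early, had 27.2 and 19.0 RPKM at ZT14 and 11.6 and 11.4 at ZT20 in total RNA. Its fold of 1.502 (1.24 to 1.81, adjusted p = 0.00358, peak ZT12.0 ± 1.77 h) sits on the minimum. Leaving out a single pool took it under the minimum in 9 of 24 fits, with 1.41 (adjusted p = 0.00679) without ZT14 replicate 1 as the smallest fold. Its footprint fold of 1.38 (1.11 to 1.73, adjusted p = 0.0457) was under the minimum.

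Tsr1 (ENSMUSG00000038335, chromosome 11, 74898071 to 74909342), which proofreads the late small subunit, had footprints of 13.4 and 8.30 RPKM at ZT14 and 3.89 and 5.88 at ZT4. It was called there at 1.55-fold (1.16 to 2.06, adjusted p = 0.0386, peak ZT15.0 ± 2.52 h), against 1.31-fold in total RNA (1.02 to 1.69, adjusted p = 0.174). The call ended in 7 of the 24 fits without 1 pool, with adjusted p up to 0.0974 without ZT14 replicate 1, and at 1.43-fold (0.144) without the pancreatic pools. The gene Srr overlaps 509 of its 2409 coding bases on the opposite strand, and whether reads were counted by strand is not given in the sources used here.

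The other 6 small-subunit members stayed under the minimum fold in both assays, between 1.16 and 1.40 in total RNA and between 1.15 and 1.31 in footprints. Nob1, the endonuclease that makes the mature end of 18S rRNA, had an adjusted p of 0.0188 in total RNA and 0.0469 in footprints at 1.40-fold and 1.31-fold. Bms1, a GTPase of the processome, had 1.23-fold in footprints (adjusted p = 0.00977). Heatr1, Nop14, Utp20 and Ltv1 passed the adjusted p of the 24 h curve in neither assay. With time point as a factor, Heatr1 passed in total RNA and footprints (adjusted p = 0.0142 and 0.0333), as did Nop14 (0.00591 and 0.0468). Utp20 passed that test in footprints alone (adjusted p = 0.0323), and Ltv1 in neither assay. Utp20, a large processome protein, ran from 5.22 through 6.72 to 9.08 RPKM in total RNA.

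The 10 large-subunit factors had fitted folds from 1.05 to 2.03 in total RNA and from 1.03 to 1.65 in footprints. Of these 10, 3 were called in at least 1 assay, against 21.5% of all genes. Gnl3 (ENSMUSG00000042354, chromosome 14, 31012433 to 31019152), nucleostemin, a nucleolar GTPase, had the widest total RNA rhythm of the 35. It had 28.3 and 30.6 RPKM at ZT10 and 37.8 and 25.2 at ZT14, against 12.6 and 14.1 at ZT20. Its footprints were 19.2 and 14.7 RPKM at ZT14 and 7.84 and 9.68 at ZT20. The folds were 2.03 (1.69 to 2.45, adjusted p = 5.22e-06, peak ZT11.1 ± 1.00 h) and 1.65 (1.33 to 2.05, adjusted p = 0.00176, ZT11.2 ± 1.65 h), and both calls held without any single pool and without the pancreatic pools. With time point as a factor Gnl3 passed in total RNA (adjusted p = 0.00216) and not in footprints (0.103).

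Nop16 (ENSMUSG00000025869, chromosome 13, 54584185 to 54590090), a nucleolar protein of the large subunit, had the latest peak of the called members. Its total RNA was 38.2 and 49.0 RPKM at ZT18 and 26.4 and 22.5 at ZT10, and its footprints were 48.2 and 52.2 at ZT18 and 33.8 and 24.97 at ZT8. The folds were 1.69 (1.44 to 1.98, adjusted p = 3.55e-05, peak ZT19.3 ± 1.15 h) and 1.51 (1.34 to 1.72, adjusted p = 3.27e-05, ZT19.4 ± 1.15 h). In total RNA the call held without any single pool and without the pancreatic pools. The footprint value lies at the minimum, and it ended without any of 5 pools (1.46-fold to 1.498-fold), the lowest being without ZT8 replicate 2 (adjusted p = 9.87e-05), and without the pancreatic pools (1.44-fold, 0.00233).

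Nop2 (ENSMUSG00000038279, chromosome 6, 125131909 to 125144753), an rRNA cytosine methyltransferase, was called in footprints, with 14.6 and 10.5 RPKM at ZT14 and 4.43 and 5.54 at ZT4. Its fold was 1.62 (1.29 to 2.03, adjusted p = 0.00367, peak ZT15.8 ± 1.79 h). In total RNA it had 22.4 and 16.3 RPKM at ZT14 and 7.48 and 9.32 at ZT4, and its fold of 1.495 fell just under the minimum (1.22 to 1.84, adjusted p = 0.00782). Just outside as well was Wdr12, which with Bop1 and Pes1 forms the PeBoW complex, at 1.47-fold in footprints (1.26 to 1.73, adjusted p = 0.00104). Its partners were not called: Pes1 had 1.05-fold (0.936 to 1.19, adjusted p = 0.718) and 1.08-fold (0.994 to 1.18, adjusted p = 0.252), and Bop1 had 1.17-fold and 1.18-fold with fitted peaks at ZT22.8 and ZT19.8 (adjusted p = 0.109 and 0.106).

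The flattest members were also in this role. Ebna1bp2 had folds of 1.07 (0.934 to 1.22, adjusted p = 0.670) and 1.04 (0.890 to 1.21, adjusted p = 0.907). Rrp1 had 1.10 (0.976 to 1.23, adjusted p = 0.366) and 1.03 (0.939 to 1.13, adjusted p = 0.831), with 30.9 to 43.9 RPKM in total RNA and 27.4 to 37.4 in footprints. Rrs1 varied between pools without a 24 h curve, from 6.54 to 15.9 RPKM in total RNA (1.16-fold, adjusted p = 0.617). Nip7, an assembly factor with an RNA-binding domain, had 1.10-fold in total RNA (0.909 to 1.33, adjusted p = 0.660) and 1.34-fold in footprints (1.13 to 1.60, adjusted p = 0.0188), the latter under the minimum.

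**Figure D3:**
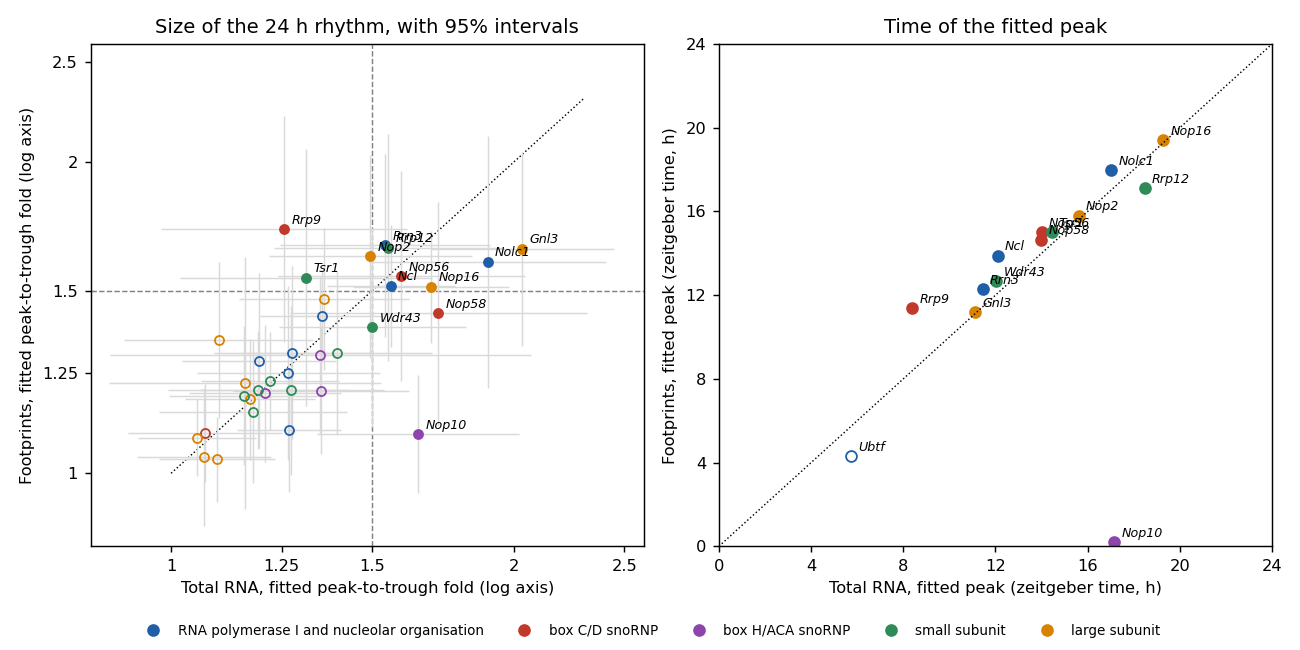
Left, fitted peak-to-trough fold of the 35 members in total RNA (horizontal) and footprints (vertical), both log axes, with 95% intervals in grey; filled points were called in at least 1 assay, dashed lines mark the 1.5-fold minimum and the dotted line equality. Right, fitted peak time (h) in both assays for the 13 called members and Ubtf; most called members lie near the dotted line of equality from ZT11 to ZT20, and the Nop10 footprint peak is that of a curve that was not called.

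The correlation of log2 values between a gene's total RNA and its footprints over the 24 shared lysates had a median of 0.771 over the members and 0.475 over all genes tested, as a description, since both assays share the lysate. It was below the median of all genes in 8 members, with 0.0517 for Gar1, 0.122 for Ltv1, 0.166 for Nop10, 0.187 for Nhp2 and 0.287 for Nip7 as the lowest. In the 7 members called in both assays the footprint peak came later than the RNA peak in 6, by a median of 0.821 h (from 1.36 h earlier for Rrp12 to 1.79 h later for Ncl), against a median of 0.00517 h over the 1038 genes called in both. The 95% half-widths of the single peak times in these 7 ran from 0.998 to 2.27 h. The 1.79 h of Ncl was wider than both of its half-widths, but the test of the difference between assays did not pass for it (limma adjusted p = 0.567, and 0.152 paired by pool).

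Single pools moved many members at once. Replicate 1 of ZT14 held the highest of the 24 values for 21 of the 35 members in total RNA and for 16 in footprints, whereas it held the highest value for 8.51% and 5.93% of all genes. That pool had acinar marker sums in the low range (5.90 RPKM in footprints). Its total RNA library held 6.76 M reads on listed genes (median of libraries 11.8) and its footprint library 17.8 M (median 17.9). Averaged over the 35 members and centred per gene, that pool stood at 0.456 log2 in total RNA and 0.433 in footprints, while replicate 2 of ZT14 stood at 0.172 and 0.177. At ZT18 the order was the other way, with -0.0672 and -0.0722 in replicate 1 and 0.143 and 0.225 in replicate 2. Replicate 2 of ZT18 had the shallowest total RNA library, at 3.88 M reads, and 17.5 M in footprints. The sign of the difference between replicates was the same in both assays at 10 of 12 time points.

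At 3 of the 4 time points where a single pool held pancreatic transcripts, that pool had the lower member mean in total RNA. Replicate 1 of ZT4 (-0.276 in total RNA) lay below its partner (-0.170), as did replicate 1 of ZT6 (-0.231 against -0.0144) and replicate 2 of ZT8 (-0.138 against 0.0952). At ZT16 the pancreatic pool and its partner were close in total RNA (0.0187 and 0.0124). In footprints the pancreatic pool had the lower member mean at all 4 time points. It stood at -0.341 against -0.181 at ZT4 and at -0.287 against -0.0272 at ZT6. At ZT8 the values were -0.0792 against 0.0609, and at ZT16 -0.0245 against 0.0290. Without the 6 pools, 8 members were called in total RNA (Nop58 and Rrp12 no longer) and 8 in footprints (without Nolc1, Tsr1 and Nop16, and with Wdr12). These fits rest on 18 of the 24 pools, and the share of all genes called in them is not given here. The part of the 6 pools in the low daytime values was not tested further.

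**Figure D4:**
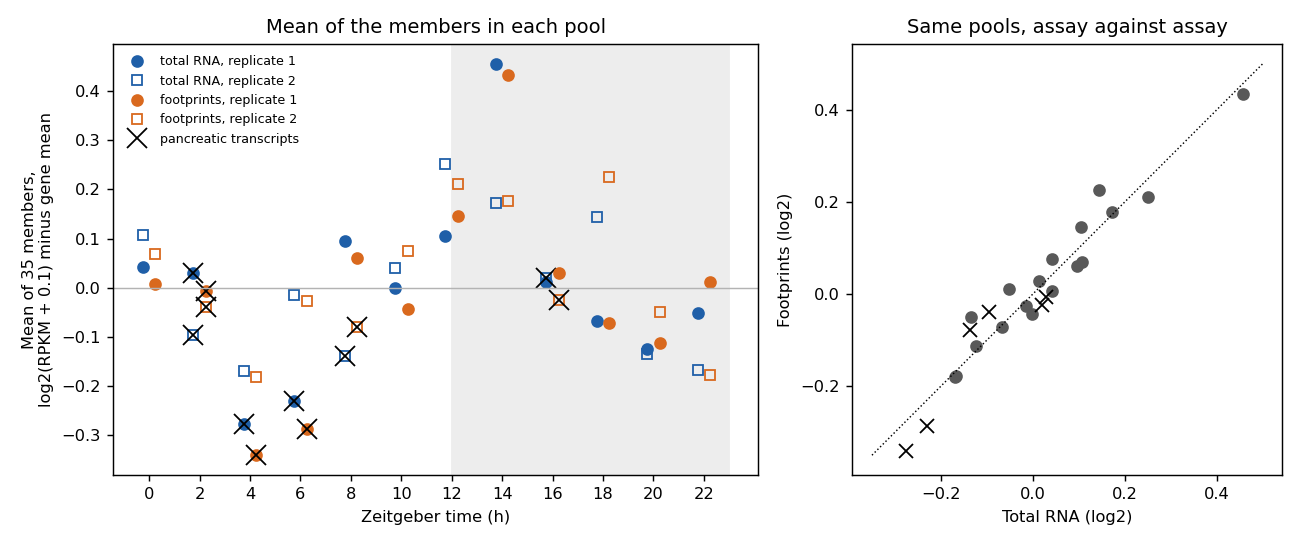
Left, mean over the 35 members of log2(RPKM + 0.1) minus each gene's mean, by zeitgeber time (h), in total RNA (blue) and footprints (orange) for replicate 1 (filled circles) and replicate 2 (open squares); crosses mark the 6 pools with pancreatic transcripts and grey the dark hours. Right, the same 24 pools, total RNA against footprints, with crosses for the pancreatic pools and a dotted line of equality; ZT14 replicate 1 stands at the top right and ZT4 replicate 1 at the bottom left.

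Translation efficiency, the log2 ratio of footprint to total RNA RPKM in a pool, was spread over the range of liver genes. The members had a median of -0.35, and all genes tested -0.34. At the top, Gar1 had 1.72 ± 0.59 (SD, n = 24) and Nop10 1.40 ± 0.37, at the 99.6th and 99.1th percentile of all genes, followed by Fbl (0.62 ± 0.15) and Ncl (0.50 ± 0.19). The Gar1 ratio rests on its few total RNA reads. At the bottom, Ubtf (-1.06 ± 0.17), Utp20 (-1.04 ± 0.12), Rrp9 (-1.02 ± 0.36) and Bms1 (-0.999 ± 0.16) lay at the 20th to 22nd percentile. Within the box H/ACA particle, then, the ratio ran from -0.66 ± 0.23 in Dkc1 through -0.06 ± 0.26 in Nhp2 to the values of Nop10 and Gar1. Efficiency fell with coding length over the members (Spearman rho -0.43, n = 35) much as over all genes (-0.42, n = 9390), given as a description across genes that share libraries.

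**Figure D5:**
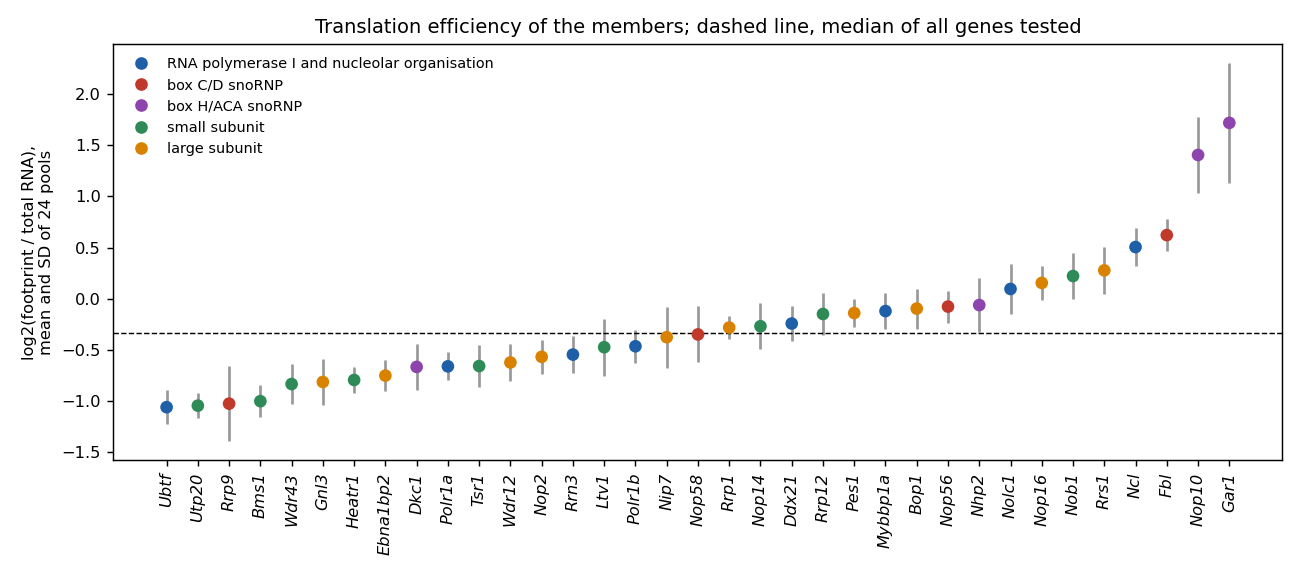
Translation efficiency of the 35 members, log2 of the footprint to total RNA ratio (vertical axis), ordered from low to high and coloured by role; points are means and bars SDs over 24 pools, and the dashed line is the median of all genes tested. Nop10 and Gar1 stand above 1 and the other 33 between -1.06 and 0.62.

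A 24 h change of efficiency was called in 0 members, against 0.371% of all genes, by limma on the 48 libraries. At an unadjusted p under 0.05 it passed for 2 members, against 1041 of the 9445 genes tested. Paired by pool, a change of efficiency was called in 2, Nop10 and Nip7, against 3.23%. A 12 h component was called in total RNA for Nop14 (1.43-fold, adjusted p = 0.0059) and Gar1 (2.03-fold, 0.0272), against 5.05% of all genes. In footprints it was called for Ncl (1.246-fold, 0.0356) and Utp20 (1.28-fold, 0.0383), against 4.49%, and none of the 4 was called in the other assay or without the pancreatic pools. With time point as a factor, which assumes no shape, 16 members (45.7%) passed in total RNA against 37% of all genes, and 14 (40.0%) in footprints against 26.7%. Of the 10 members called by the 24 h curve in total RNA, 7 passed it (Nop56, Rrn3 and Rrp12 did not), and of the 10 in footprints 6 did (Nop56, Rrn3, Gnl3 and Tsr1 did not). The contrast of ZT0 with ZT22 and ZT2 passed for 0 members in either assay by limma, against 0.603% and 0.106% of all genes. At an unadjusted p under 0.05 that contrast passed for 4 members in total RNA and 3 in footprints, against 1699 and 969 of the 9445 genes tested.

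From a list of 124 other ribosome biogenesis genes, 119 were tested, and total RNA gave 6 calls (5.04%) and footprints another 6 (5.04%), with 2 genes in both. Members and other genes together came to 16 calls of 154 in each assay (10.4%), beside 15.8% and 16.7% of all genes. Rcl1, an endonuclease-like protein of 18S processing, peaked by day at 1.92-fold (ZT6.40, adjusted p = 1.29e-05) and 1.87-fold (ZT6.57, 8.74e-07). Taf1d, a subunit of the polymerase I selectivity factor SL1, peaked at dusk at 1.83-fold (ZT11.3, 0.000824) and 1.95-fold (ZT12.3, 0.00721). Its partner Taf1b was called in footprints alone at 1.55-fold with a peak at ZT2.79 (adjusted p = 0.004). Also called in total RNA were Nop53 (1.63-fold, ZT6.47, adjusted p = 0.000241) and Mphosph10 (1.62-fold, ZT14.3, 0.00787). In footprints Npm1, nucleophosmin, was called at 1.61-fold (ZT13.7, adjusted p = 0.0035), with 1.496-fold in total RNA.

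Myc, the best known activator of the pathway, was low and uneven. Its total RNA ran from 0.547 through 1.95 to 8.18 RPKM, with pools of a time point as far apart as 0.830 and 5.40 at ZT16, and it was not called (1.835-fold, 0.903 to 3.73, adjusted p = 0.315). Max, its dimerisation partner, was called in total RNA at 2.15-fold (1.63 to 2.84, adjusted p = 0.000306, peak ZT17.3), with 10.9 and 11.2 RPKM at ZT18 and 2.51 and 4.54 at ZT6. Its footprint fold of 1.35 was not (1.07 to 1.69, adjusted p = 0.0776). No value was read for Mycn in total RNA.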

How the data were processed

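Each of the 48 tables holds 1 gene identifier and 1 RPKM value per line. The RPKM values were deposited by the authors, one library per table; per the submitters' processing notes the tools were CASAVA 1.82, cutadapt, Bowtie2 2.2.1, TopHat2 2.0.11, Cufflinks 2.2.1 and edgeR, on mm10 or GRCm38.p2. How genes were counted and scaled is a step that the sources used here do not give. The libraries had upper quartiles of 26.6 to 27.9 RPKM in total RNA and 21.7 to 22.7 in footprints, so levels are relative within an assay. Reads were estimated from RPKM times the longest coding length (GENCODE M21), and 74.8% to 85.5% of low values per library, in genes with 1 coding transcript, came out whole within 0.04. PCR copies are not independent molecules, so such counts cover counting error only.

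Values were fitted as log2(RPKM + 0.1) with limma 3.58.1 (R 4.3.3), trend included, with a 24 h cosine and sine, over the 9445 genes averaging 1 RPKM or more in each assay, and adjusted by Benjamini-Hochberg over all of them. Folds are on that log2 scale, which understates changes of low genes, and intervals are 95%. Efficiency rhythms are the interaction of assay and curve over 48 libraries. The fits were tested on simulated data. Pools are labelled as separate replicates, and p-values rest on the spread between pools of 2 livers, not between single animals. In the curve fits that spread also includes departures of the time points from the curve.

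Replicate numbers name lysate pools that gave both libraries, and deviations from the time-point mean correlated between assays at all 12 time points (0.160 to 0.683). Every member is named. Values are given for those called, and for the 3 highest and lowest in level, fold or efficiency. Of other pathway genes the 4 widest called per assay are named. The members, lists and tests were chosen with earlier results of these data known. Sequences are RefSeq (GRCm38.p6). Alternatives covered pseudocounts, filters, scaling, trend, minimum fold, block and left-out pools.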

Additional observations from a re-analysis of the deposited data

Results flagged for a closer look

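Nop10 and Nip7 stood out because their 24 h course differed between footprints and total RNA when the ratio was fitted per lysate pool. For Nop10 the paired adjusted p was 0.0185 (1.70-fold, 1.37 to 2.10), with total RNA highest near ZT17.1 and the ratio highest near ZT4.54. For Nip7 the paired adjusted p was 0.0384 (1.48-fold, 1.23 to 1.78), with the ratio highest near ZT16.1. Unpaired, the adjusted p values were 0.0593 and 0.299 by limma. Nip7 footprints were 21.95 and 18.6 RPKM at ZT14 and 12.8 and 13.7 at ZT4, and its total RNA was 28.2 and 21.9 against 19.1 and 19.9.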

How the results depend on the processing

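Of the 10 calls in total RNA, 6 held in every fit without 1 pool and 8 without the pancreatic pools; of the 10 in footprints, 5 and 7 held. Without 1 pool the counts ran from 7 to 11 in both assays. With the replicate block they stayed at 10 and 10. Each replicate number occurs at every time point, so that block could not change a fitted fold. The count with time point as a factor was 16 in total RNA and 14 in footprints, of which 7 and 6 were called by the 24 h curve (Nop56, Rrn3 and Rrp12 lost in total RNA, and Nop56, Rrn3, Gnl3 and Tsr1 in footprints), with no minimum fold 17 and 17, and with a smaller minimum fold it was 17 in total RNA and 16 in footprints. A pseudocount of 1 gave 8 (without Rrp12 and Wdr43) and 7 (without Rrp12, Tsr1 and Nop16). For that pseudocount, the smaller minimum fold and the fits without 1 pool, the share of all genes called is not given here. The 0 calls in efficiency became 2 with the replicate block (paired by lysate pool), 1 (Nop10, adjusted p = 0.041) with a mean of at least 5 RPKM, and 0 to 1 without 1 pool (Nop10, 0.0464 without ZT20 replicate 2 and 0.0269 without ZT22 replicate 2). The 12 h counts of 2 and 2 became 0 and 0 without the pancreatic pools. Those fits rest on 18 pools, and the share of all genes called in them is not given here. The ZT0 contrast could not be fitted without the pancreatic pools, since both ZT2 pools are among them. Gar1 and Nob1 had the fewest reads in total RNA, with medians of 18.5 and 66.3 per library.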
